A study of Mus musculus with 4 samples.

Results

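The genes described here build and anchor the contractile apparatus of smooth muscle: Acta2, Tagln, Myh11, Cnn1, Actg2, Actc1, Des, Lmod1, Synpo2 and Itga8. They were taken by symbol, and all 10 were found among the 55471 gene identifiers of the deposited count tables. The tables come from droplet single-cell RNA sequencing of E18.5 embryonic mouse lung, with 2 libraries of a Dnmt1 conditional knockout (CKO) and 2 of wild type (WT). The CKO label lists a reverse tetracycline activator driven from Tbx4 (Tbx4-rtTA), a Tet-O-Cre transgene and a deleted Dnmt1 allele pair (Dnmt1-D/D), and the WT label names no allele. Tbx4 is active in lung mesenchyme, and a Tet-O-Cre is switched on by the activator together with doxycycline. The labels give neither the dosing nor whether each library is a separate animal. The p-values of genotype tests therefore measure the spread between these 4 libraries. Those of differences between classes measure the spread left once library is fitted as a factor. With 2 libraries per genotype that spread rests on few values, so a very small p there does not measure certainty across animals. The question was how the contractile genes stand in smooth muscle, myofibroblasts, pericytes and fibroblasts of each genotype, with the number of cells that make them kept apart from the level per cell.

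Smooth muscle shortens when myosin filaments pull on actin filaments that are tied to the cell membrane and to intermediate filaments. Serum response factor and its partner myocardin switch many of these genes on, through a short promoter element called the CArG box. In the lung they mark muscle around airways and vessels, and some are shared with alveolar myofibroblasts, pericytes and fibroblasts, so none of them alone defines a cell type. Dnmt1 copies DNA methylation onto newly made strands.

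The CKO libraries held 49582593 and 54334468 UMIs (unique molecular identifiers, a count of captured transcripts) and the WT libraries 48213065 and 56760219. After filtering, 4305 and 5677 CKO cells and 5115 and 4914 WT cells remained, of which 2564 and 2791 CKO cells and 2796 and 2558 WT cells were mesenchymal-like by marker genes. Library pairs shared between 8 and 16 cell barcodes. Mesenchymal-like cells were clustered after integration of the libraries, with the 10 genes and their companion lists left out. These clusters were thus not drawn from the genes they are used to describe. The earlier split of all cells into broad classes did not leave the 10 genes out. It set apart a cardiac and skeletal muscle cluster of 38 and 12 CKO cells and 17 and 2 WT cells, with Actc1 among its leading genes. Vascular smooth muscle-like, myofibroblast-like, pericyte-like, matrix fibroblast-like, adventitial fibroblast-like and cycling clusters reached a name from their markers. No cluster reached the name of airway smooth muscle. The highest sums of the airway smooth muscle markers stood in a cluster led by Wif1, with 1944 and 3249 CPM (the gene's UMIs over all UMIs of the class in that library, on the usual CPM scale) in CKO libraries and 4422 and 5811 CPM in WT libraries, and in a small cluster led by Actc1, with 2757 and 3875 CPM in CKO libraries and 3007 and 4110 CPM in WT libraries. These and a cluster led by Lum are called by their leading genes. The Actc1-led cluster was picked out by Actc1 and Cnn1, which are among the 10 genes. The Wif1-led cluster was picked out by Wif1 and Lgr6, and Lgr6 is among the airway smooth muscle markers. That cluster also had the highest myofibroblast marker sums, 7937 and 9702 CPM in CKO libraries and 11745 and 9398 CPM in WT libraries. The myofibroblast-like class had 4968 and 5350 CPM in CKO libraries and 7629 and 5950 CPM in WT libraries. Both marker lists hold Hhip and Fgf18.

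Dnmt1, the targeted gene, stood at 9.66 and 12.9 CPM in the mesenchymal-like cells of CKO libraries and at 27.7 and 26.0 CPM in those of WT libraries, which gave a log2 fold change of -1.26 (SE 0.22, edgeR quasi-likelihood test, adjusted p = 0.00656). It was lower in the myofibroblast-like class (log2 fold change -2.69, adjusted p = 0.00876) and the matrix fibroblast-like class (log2 fold change -1.31, adjusted p = 0.0119). In the vascular smooth muscle-like class the Dnmt1 values overlapped, at 23.9 and 52.5 CPM in CKO libraries and 33.1 and 26.6 CPM in WT libraries (log2 fold change 0.43, adjusted p = 0.999), and in the pericyte-like class they overlapped as well, at 17.4 and 31.3 CPM in CKO libraries and 28.7 and 25.5 CPM in WT libraries (log2 fold change -0.09, adjusted p = 0.971). The contractile genes of these muscle and pericyte classes are therefore given for cells in which a loss of the Dnmt1 transcript was not detected. The vascular smooth muscle-like class held 209017 and 247544 UMIs of all genes in CKO libraries and 393146 and 451490 in WT libraries. Its Dnmt1 values therefore rest on few UMIs, and a loss could be missed. The labels do not say which exons were deleted, so a 3′ tag may miss part of the deletion.

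The order of levels across classes parted the genes into those of muscle clusters and those spread over the mesenchyme. Acta2, smooth muscle alpha-actin, was highest in the vascular smooth muscle-like class, at 9894 and 9073 CPM in CKO libraries and 7333 and 5993 CPM in WT libraries. The Actc1-led cluster came next for Acta2, with 8156 and 7943 CPM in CKO libraries and 6873 and 5143 CPM in WT libraries. Those classes overlapped each other and stood apart from every other class described, the next being the Wif1-led cluster with a mean of 1755 CPM over the 4 libraries. Tagln, the actin-binding protein transgelin, showed the same order, with 6234 and 6544 CPM in CKO libraries and 5570 and 5480 CPM in WT libraries of the vascular smooth muscle-like class.

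Myh11, Cnn1, Actg2, Actc1, Des and Synpo2 peaked in the Actc1-led cluster and stood apart there from the next class. For Actc1 and Cnn1 that peak was set by the choice of the cluster, which was picked out by them. Myh11, the smooth muscle myosin heavy chain, had 2601 and 2036 CPM in that cluster of CKO libraries and 1436 and 2219 CPM in that of WT libraries. Des, the intermediate filament protein desmin, followed in pericyte-like cells, where it had 464 and 391.6 CPM in CKO libraries and 432 and 381 CPM in WT libraries. Itga8, the alpha subunit of an integrin that links the cell to matrix proteins, behaved otherwise: its highest mean was in the Lum-led cluster, and its ranges there, in vascular smooth muscle-like cells and in matrix fibroblast-like cells overlapped. In myofibroblast-like cells Itga8 was near the bottom, with 10.4 and 16.1 CPM in CKO libraries and 1.13 and 2.74 CPM in WT libraries.

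**Figure D1:**
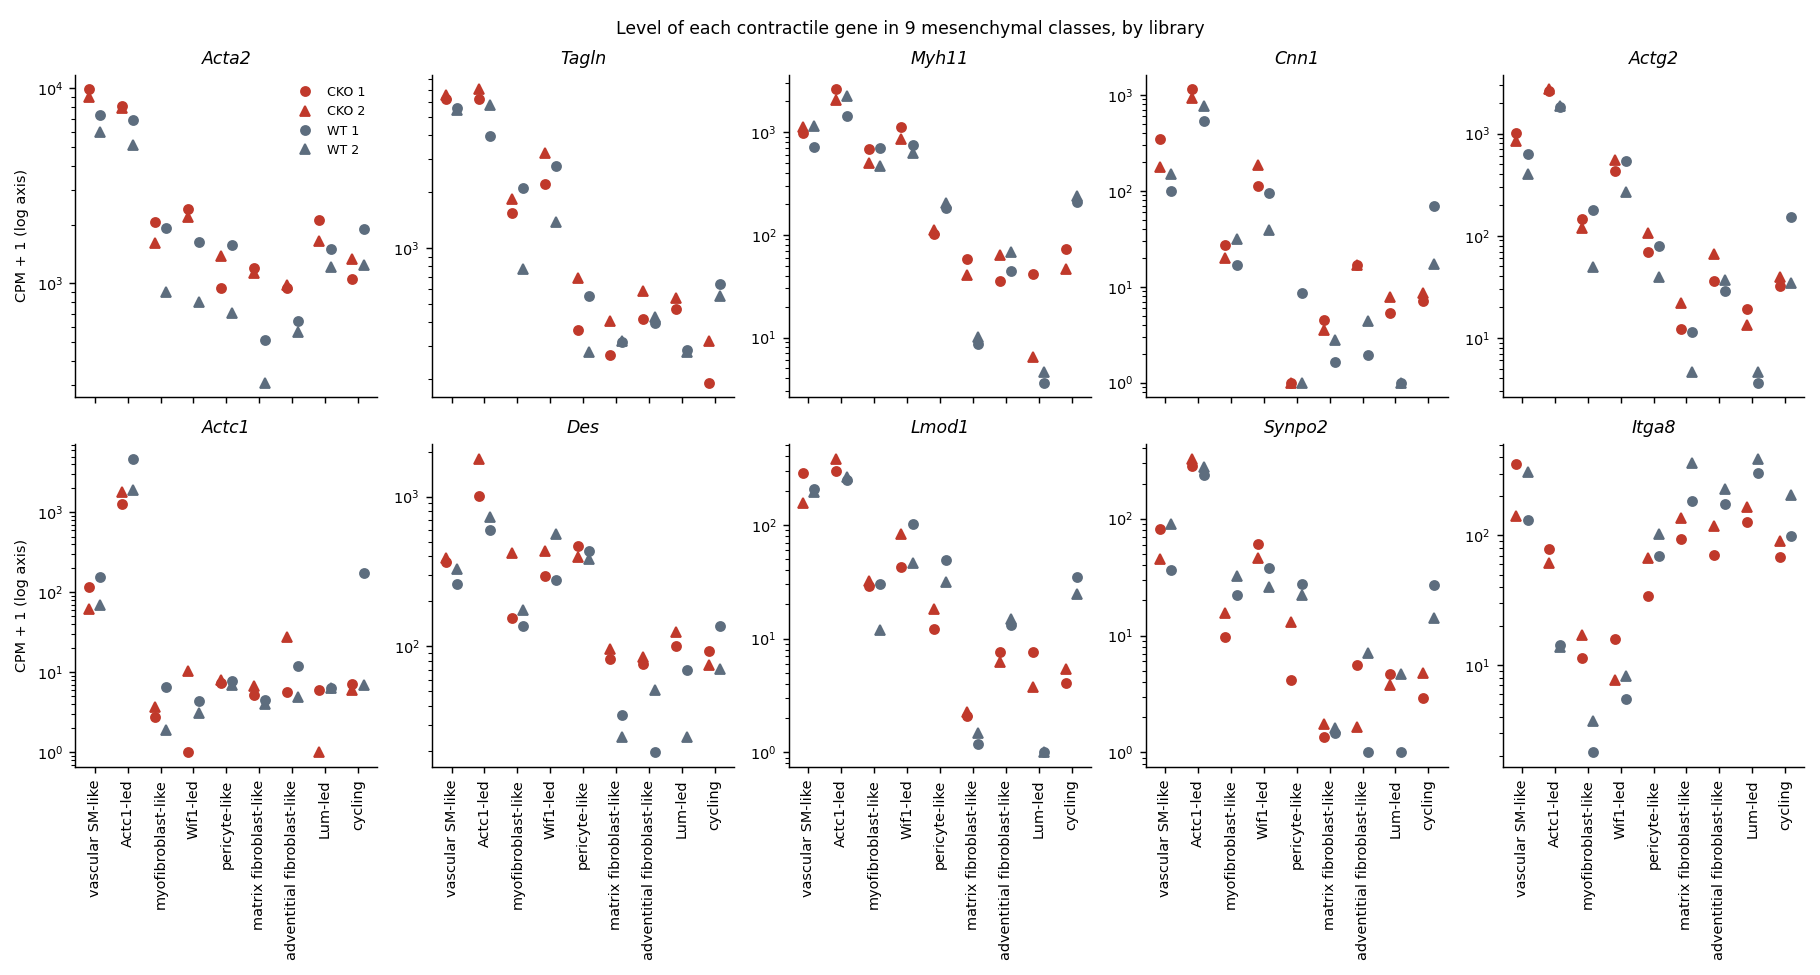
Level of the 10 genes in 9 mesenchymal classes (CPM plus 1, log axis), with each point 1 library (CKO red on the left, WT grey on the right). Acta2 and Tagln are highest in the vascular smooth muscle-like and Actc1-led classes, while Acta2, Myh11 and Des of the matrix fibroblast-like class stand higher in both CKO libraries and Itga8 lower.

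Promoters are shown for the genes on which the comparisons of genotypes turn, since Dnmt1 acts on CpG dinucleotides: Acta2 and Des, which were higher in CKO matrix fibroblast-like cells, Itga8, which was lower in them, and Actc1, which was lower in cells rich in the other genes. RefSeq promoter windows (GRCm38.p6, 250 bases before to 50 after the start) were found for 7 of the 10 genes; Tagln, Myh11 and Actg2 had no entry. Each is printed 5′ to 3′ on the strand of the gene, with every CpG in capitals.
Acta2, chr19:34255324-34255623, minus strand: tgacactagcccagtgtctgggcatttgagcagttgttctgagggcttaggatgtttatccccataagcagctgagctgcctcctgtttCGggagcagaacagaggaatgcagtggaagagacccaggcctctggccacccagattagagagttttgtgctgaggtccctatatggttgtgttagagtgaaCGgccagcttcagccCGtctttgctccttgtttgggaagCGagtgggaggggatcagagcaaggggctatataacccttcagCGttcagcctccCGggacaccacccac
Des, chr1:75360042-75360341, plus strand: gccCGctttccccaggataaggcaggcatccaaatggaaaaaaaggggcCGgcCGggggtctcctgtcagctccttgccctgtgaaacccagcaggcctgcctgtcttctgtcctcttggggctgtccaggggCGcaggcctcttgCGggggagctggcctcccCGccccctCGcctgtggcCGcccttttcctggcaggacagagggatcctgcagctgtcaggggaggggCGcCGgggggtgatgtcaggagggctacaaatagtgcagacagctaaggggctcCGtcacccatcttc
Itga8, chr2:12301895-12302194, minus strand: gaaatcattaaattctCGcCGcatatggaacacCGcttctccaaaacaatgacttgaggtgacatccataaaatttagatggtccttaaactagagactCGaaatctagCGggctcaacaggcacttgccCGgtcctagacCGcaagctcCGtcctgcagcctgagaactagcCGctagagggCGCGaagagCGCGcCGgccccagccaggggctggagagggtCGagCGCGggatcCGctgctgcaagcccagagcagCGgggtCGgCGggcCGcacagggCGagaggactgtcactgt
Actc1, chr2:114052826-114053125, minus strand: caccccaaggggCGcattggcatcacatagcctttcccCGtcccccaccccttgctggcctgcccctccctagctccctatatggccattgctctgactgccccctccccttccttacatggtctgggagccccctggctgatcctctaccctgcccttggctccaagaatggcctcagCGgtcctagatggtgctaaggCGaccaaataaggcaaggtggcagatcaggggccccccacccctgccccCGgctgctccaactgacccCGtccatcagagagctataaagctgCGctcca

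The Itga8 window held 23 CpGs, a number that 80.0% of all 32851 promoter windows reach at most, and those of Des, Actc1 and Acta2 held 11, 7 and 6. Cnn1, Lmod1 and Synpo2 held 6, 7 and 17, and the median of all windows was 7. Methylation was not measured, so the CpG numbers describe the sequences alone. The CArG box was searched in its strict form, which reads the same on both strands: it was found in 1 of the 7 windows, that of Actc1 (CCAAATAAGG, starting 47 bases before the start), and in 1.63% of all windows. The absence of these letters from the other windows says nothing on whether the factor binds those genes.

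The background from free RNA was read in cells that should lack these proteins. Epithelial-like cells held Acta2 at 7.81 and 24.9 CPM in CKO libraries and 8.68 and 10.9 CPM in WT libraries. Myh11 stood there at 1.48 and 1.27 CPM in CKO libraries and 1.11 and 2.23 CPM in WT libraries. In the sums of the epithelial-like, the endothelial-like, the immune-like and the mesothelial-like cells edgeR called none of the 25 tests of these genes, where it called 0%, 0.0474%, 0.00811% and 0.601% of all genes tested. At an unadjusted p under 0.05 there were 1, 1, 1 and 0 of the contractile genes, and DESeq2 called 0 in each of these classes. The small erythroid-like class, of 65 and 21 CKO cells and 33 and 26 WT cells, was tested as well: edgeR and DESeq2 called none of 4 genes, where edgeR called 0.272% of all genes, with Acta2 and Tagln at an unadjusted p under 0.05. Both were called higher there without CKO library 1 or without WT library 1.

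Over all mesenchymal-like cells together, the contractile genes had fold changes of either sign. A gene is called here when its adjusted p (edgeR, Benjamini-Hochberg over all genes tested) is under 0.05. Itga8 was the called member of the 10, all of which were tested, against 12.9% of all 16214 genes, and the median log2 fold change of the 10 was 0.07 beside 0.00 for all genes. With 1 of 10 called, the share was near that of genes at large. Itga8 had 75.7 and 104 CPM in CKO libraries and 151 and 286 CPM in WT libraries, and fell by 1.28 on the log2 scale (SE 0.29, adjusted p = 0.0197). Both CKO libraries were below both WT libraries, with WT library 2 the highest; without that library the difference was -0.81 and no longer called (adjusted p = 0.111). In its place Actc1 was called lower without WT library 2. Leaving out CKO library 2 added a call of Actc1 to that of Itga8, and leaving out WT library 1 a call of Acta2.

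The other 9 genes gave values without a call in those sums. Acta2 had 1413 and 1369 CPM in CKO libraries and 1033 and 673 CPM in WT libraries (log2 fold change 0.68, SE 0.26, adjusted p = 0.126). Actc1, cardiac alpha-actin, had 20.9 and 29.5 CPM in CKO libraries and 58.1 and 34.0 CPM in WT libraries (log2 fold change -0.89, SE 0.29, adjusted p = 0.0799). Neither pair of groups overlapped. Tagln, with 569 and 776 CPM in CKO libraries and 722 and 603 CPM in WT libraries, and Myh11, with 174 and 139 CPM in CKO libraries and 135 and 147 CPM in WT libraries, overlapped between the genotypes. DESeq2 called 5 of the 10 (Acta2, Cnn1 and Des higher, Actc1 and Itga8 lower), against 20.4% of all genes, so the count of calls here depended on the tool.

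A sum over the mesenchyme mixes 2 things, the size of each class and the level inside it, and these were taken apart by setting each library group's class sizes against its class levels. For Acta2 the level within classes contributed 69.1% of the WT level and the class sizes -5.73%, out of a whole difference of 63.2%. For Des the shares were 59.1% from levels and -7.95% from sizes, and for Cnn1, calponin, which restrains the myosin motor, 59.5% and -4.37%. Itga8 was lower mostly through levels within these classes (-55.5%), with -3.61% from sizes. For Tagln a gain of 14.2% through levels stood beside a loss of 12.2% through sizes, leaving 1.51%. The size terms of 9 of the genes were negative, between -3.61% and -12.2%, and that of Actc1 was 4.22%. These are descriptions of the 4 libraries, without a test.

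**Figure D2:**
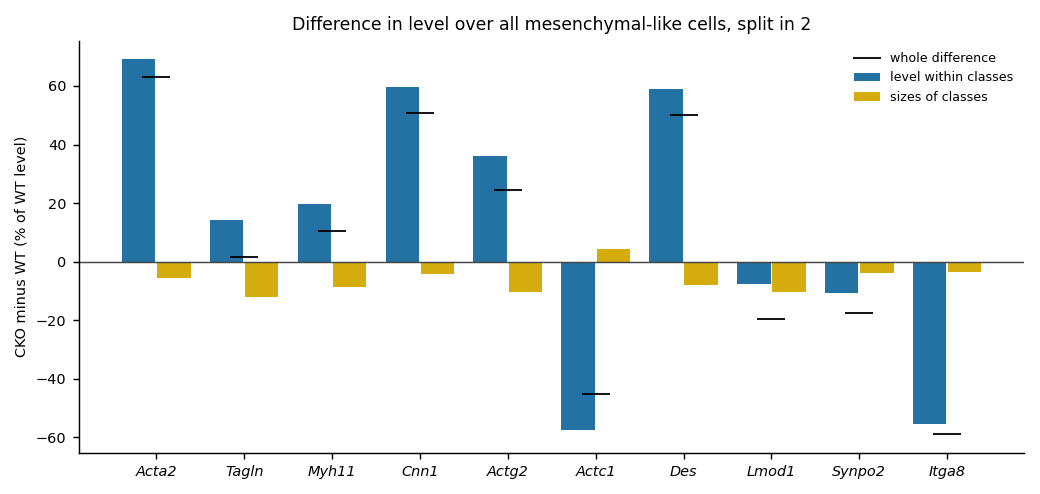
Difference between CKO and WT in the level of each gene over all mesenchymal-like cells, as a percentage of the WT level, with the part from levels within classes (blue), the part from class sizes (yellow) and the whole difference (black). The level term exceeds the size term for most genes, and for Tagln the terms nearly cancel. A shift of cells between clusters inside a class counts as level.

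The class sizes behind those terms are given as shares of mesenchymal-like cells, without a test, since genes that differ between genotypes took part in the clustering. Vascular smooth muscle-like cells made up 1.13% and 1.61% in CKO libraries and 2.04% and 1.76% in WT libraries. Library 2 of each genotype held 45 of them. Binomial 95% intervals of those shares overlapped, at 1.18% to 2.15% in CKO library 2 and 1.29% to 2.35% in WT library 2. Pericyte-like cells made up 3.51% and 3.91% in CKO libraries and 6.90% and 6.33% in WT libraries. The Wif1-led cluster held 4.21% and 5.30% in CKO libraries and 7.30% and 6.53% in WT libraries, and matrix fibroblast-like cells 45.2% and 47.4% in CKO libraries and 62.0% and 61% in WT libraries. These classes were smaller in both CKO libraries. Cycling cells were the larger there, with 8.93% and 6.06% in CKO libraries and 3.90% and 1.88% in WT libraries, and so were the Lum-led cluster, with 6.24% and 3.73% in CKO libraries and 1.97% and 2.31% in WT libraries, and the clusters outside these classes, with 16.03% and 17.7% in CKO libraries and 3.40% and 4.85% in WT libraries. The Actc1-led cluster overlapped, with 0.975% and 0.932% in CKO libraries and 0.644% and 1.41% in WT libraries, as did adventitial fibroblast-like cells, with 7.45% and 8.81% in CKO libraries and 5.94% and 7.86% in WT libraries. Myofibroblast-like cells overlapped too, with 6.32% and 4.55% in CKO libraries and 5.94% and 6.06% in WT libraries. The cells of a cluster led by germline genes, 269 and 257 in CKO libraries and 1 and 0 in WT libraries, count in the denominator, so smaller shares elsewhere do not by themselves show fewer cells.

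Within the vascular smooth muscle-like class, of 29 and 45 CKO cells and 57 and 45 WT cells, most contractile genes had a log2 fold change at or above 0, Actc1 being the exception at -0.31, and none passed the test. edgeR called 0 of 10, where it called 0.338% of all genes tested, with 3 of the 10 at an unadjusted p under 0.05, and DESeq2 called 0. The median log2 fold change of the 10 was 0.22 beside -0.01 for all genes. Acta2 was 0.54 (SE 0.15, adjusted p = 0.318) and Actg2, the enteric smooth muscle gamma-actin, was 0.88 (SE 0.28, adjusted p = 0.528), with 1005 and 852 CPM in CKO libraries and 633 and 401 CPM in WT libraries. Cnn1 was 1.08 (SE 0.34, adjusted p = 0.528), with 344 and 178 CPM in CKO libraries and 99.2 and 148 CPM in WT libraries. For these 3 genes both CKO libraries were above both WT libraries. Myh11 overlapped, with 986 and 1119 CPM in CKO libraries and 710 and 1152 CPM in WT libraries (log2 fold change 0.21, SE 0.27). Leaving out CKO library 2 gave 2 calls, Acta2 and Cnn1 higher, and leaving out CKO library 1 gave Acta2.

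Pericyte-like cells carried little Cnn1, which was at 0 in every library but WT library 1 (7.66 CPM), and no gene of the 8 tested was called, against 1.76% of all genes. At an unadjusted p under 0.05 there were 3 of the 8 (Lmod1, Myh11 and Synpo2), and DESeq2 called 0. Lmod1, leiomodin, which nucleates actin filaments, had 11.1 and 17.4 CPM in CKO libraries and 47.9 and 30.7 CPM in WT libraries (log2 fold change -1.39, SE 0.44, adjusted p = 0.163). Synpo2, an actin-bundling protein of muscle, had 3.16 and 12.2 CPM in CKO libraries and 26.8 and 21.3 CPM in WT libraries (log2 fold change -1.58, SE 0.56, adjusted p = 0.221). Myh11 had 101 and 110 CPM in CKO libraries and 181 and 203 CPM in WT libraries (log2 fold change -0.79, SE 0.28, adjusted p = 0.216). For each of these genes the CKO libraries stood below the WT libraries, while Acta2 and Des overlapped. Without CKO library 2, Synpo2 was called lower. The 12 pericyte markers summed to 6207 and 9917 CPM in CKO libraries and 14580 and 13130 CPM in WT libraries of that class, with 8 of 12 lower in both CKO libraries, and their part in these differences was not tested.

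Myofibroblast-like cells held 1 called gene of 9 tested, Itga8, against 4.81% of all genes. At the levels given above it was higher in CKO libraries by 2.67 on the log2 scale (SE 0.71, adjusted p = 0.0478). That was the opposite direction to the mesenchyme as a whole. The class held 1151487 and 746161 UMIs of all genes in CKO libraries and 888002 and 1093527 in WT libraries. The WT values of Itga8 therefore rest on a few UMIs. The call ended without any of the 4 libraries, whichever was left out, and under DESeq2. Without WT library 1 Actg2, Tagln and Acta2 were called higher in its place, and without CKO library 1 Des was called higher. Clustered without integration, the class held 27 and 97 CKO cells and 375 and 337 WT cells, and of 8 genes tested Cnn1 was called higher (log2 fold change 1.95, SE 0.34, adjusted p = 0.0128, 0.289% of all genes called), with 7 of the 8 at an unadjusted p under 0.05. In the same class the 12 matrix fibroblast markers summed to 1734 and 2281 CPM in CKO libraries and 1009 and 690 CPM in WT libraries, 7 of 12 being higher in both CKO libraries, and their part was not tested. Acta2 overlapped there, with 2057 and 1619 CPM in CKO libraries and 1921 and 907 CPM in WT libraries, and so did Myh11, with 679 and 503 CPM in CKO libraries and 698 and 470 CPM in WT libraries.

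In the Wif1-led cluster edgeR called none of 8 tested genes, against 2.87% of all genes, with 4 of the 8 at an unadjusted p under 0.05 and 0 called by DESeq2. Acta2 had 2395 and 2196 CPM in CKO libraries and 1629 and 799 CPM in WT libraries (log2 fold change 0.96, SE 0.28, adjusted p = 0.0818). Cnn1 had 112 and 185 CPM in CKO libraries and 94.3 and 38.3 CPM in WT libraries (log2 fold change 1.21, SE 0.36, adjusted p = 0.0875). For both genes the CKO libraries were the higher, and without WT library 1 edgeR called 4 genes there, all higher: Acta2, Tagln, Cnn1 and Actg2. Leaving out CKO library 1 gave Cnn1 and leaving out CKO library 2 gave Acta2.

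Matrix fibroblast-like cells, which are not contractile cells by name, held 4 of the 14 calls made over all 8 classes tested. Of the 9 genes tested, 3 were called higher and 1 lower, against 6.76% and 5.08% of all 13847 genes (11.8% in either direction). Synpo2 was not tested because of its low counts, between 0.358 and 0.758 CPM. Myh11 had 57.0 and 39.6 CPM in CKO libraries and 7.66 and 9.04 CPM in WT libraries (log2 fold change 2.49, SE 0.24, adjusted p = 0.000219). Des had 81.2 and 94.5 CPM in CKO libraries and 34.0 and 23.7 CPM in WT libraries (log2 fold change 1.56, SE 0.24, adjusted p = 0.00361). Acta2 had 1196 and 1124 CPM in CKO libraries and 515 and 309 CPM in WT libraries (log2 fold change 1.44, SE 0.28, adjusted p = 0.0111). The CKO libraries stood above the WT libraries for all 3 genes, without overlap. Against the change in vascular smooth muscle-like cells, that in matrix fibroblast-like cells was larger by 2.27 on the log2 scale for Myh11 (edgeR test of the difference, adjusted p = 2.56e-18), by 1.24 for Des (adjusted p = 0.000220) and by 0.98 for Acta2 (adjusted p = 7.76e-06), where 1.54% of all genes had a difference called. The difference of Des was no longer called without WT library 2 (0.75, adjusted p = 0.694) or under DESeq2 (1.18, adjusted p = 0.0964).

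Itga8 fell by 1.29 on the log2 scale in matrix fibroblast-like cells (SE 0.31, adjusted p = 0.0265), with 93.4 and 134 CPM in CKO libraries and 184 and 363 CPM in WT libraries. Tagln, which is made by the same muscle cells as Acta2 and Myh11, overlapped, with 268 and 404 CPM in CKO libraries and 313 and 317 CPM in WT libraries (log2 fold change 0.06, SE 0.24, adjusted p = 0.920). Actg2, Cnn1, Lmod1 and Actc1 had positive values that missed the threshold, between 0.57 and 1.73. Without WT library 2 the Acta2 value was 1.10 (adjusted p = 0.0534) and the Itga8 value -0.77 (adjusted p = 0.186), both no longer called. The Itga8 call ended too without CKO library 1 (-1.03, adjusted p = 0.0547), under DESeq2 (-1.29, adjusted p = 0.0676) and at a clustering resolution of 2.0 (-1.17, adjusted p = 0.0568).

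**Figure D3:**
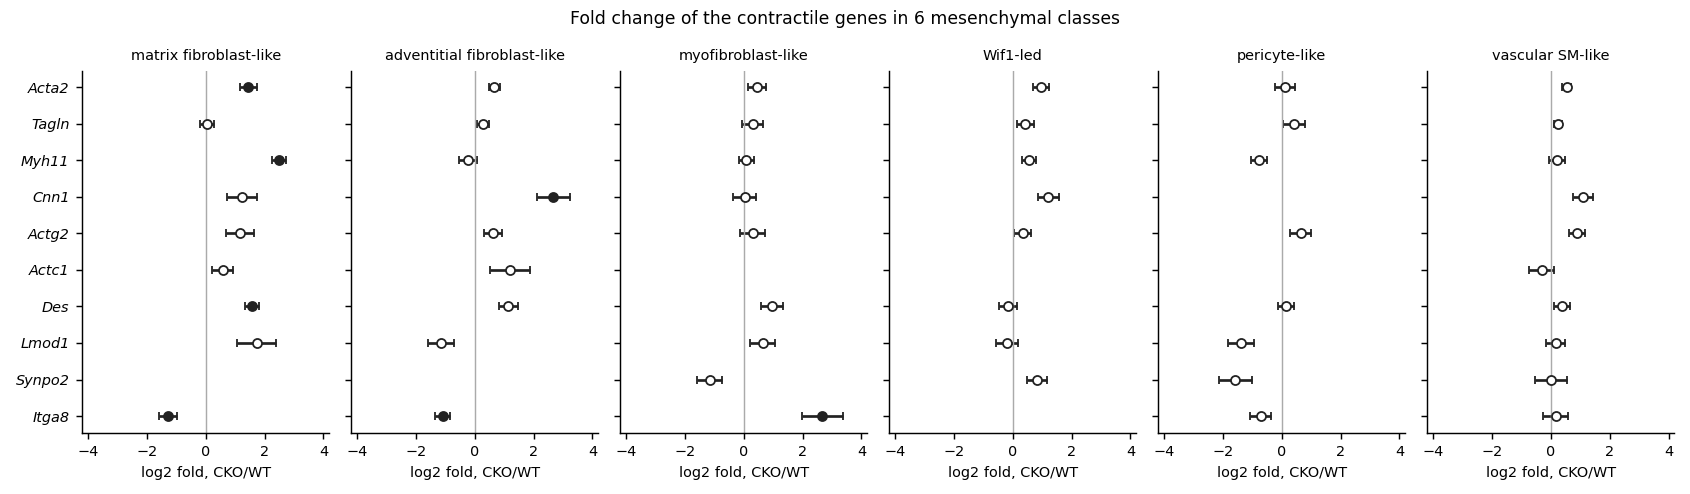
Log2 fold change of each gene, CKO over WT, in 6 mesenchymal classes, with the SE as bars and called genes marked by filled points. Myh11, Des and Acta2 are called higher and Itga8 lower in matrix fibroblast-like cells, and no gene is called in the vascular smooth muscle-like or pericyte-like class.

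The matrix fibroblast-like name rests on different clusters in the genotypes. Of its 5 clusters, a cluster led by Saa3 and C3 held 458 and 485 CKO cells and 253 and 196 WT cells, while a cluster led by Pcolce2 held 90 and 220 CKO cells and 635 and 501 WT cells. Acta2 was above both WT libraries in both CKO libraries within each of the 5 clusters. In the Saa3-led cluster Acta2 had 1011 and 1354 CPM in CKO libraries and 452 and 316 CPM in WT libraries, and in the Pcolce2-led cluster 1225 and 570 CPM in CKO libraries and 441 and 208 CPM in WT libraries. Myh11 was higher without overlap in 4 of the 5 clusters, and Des likewise in 4. The 12 matrix fibroblast markers of the class summed to 7593 and 11582 CPM in CKO libraries and 21058 and 19783 CPM in WT libraries, with 10 of 12 lower in both CKO libraries. The 11 myofibroblast markers overlapped, at 1082 and 1018 CPM in CKO libraries and 882 and 1069 CPM in WT libraries, and the 16 cardiac and skeletal muscle markers summed to 25.7 and 31.0 CPM in CKO libraries and 26.8 and 14.5 CPM in WT libraries.

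The result also leans on the integration of libraries. When cells were clustered without it, the matrix fibroblast-like class kept 110 and 470 CKO cells against 1821 and 1663 WT cells, and edgeR called none of its 8 tested genes, against 0.389% of all genes, with 3 of the 8 at an unadjusted p under 0.05. The values there were 1.24 for Myh11, 1.01 for Acta2, -0.89 for Itga8 and 0.05 for Des. Without integration a cluster of 1162 cells of CKO library 1 and 55 of CKO library 2 took no name, and neither did a cluster of 28 cells of CKO library 1 and 947 of CKO library 2, which held 0 cells of either WT library.

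Per cell, Acta2 and Myh11 were found in more of the matrix fibroblast-like cells of CKO libraries. Cells were thinned to 3000 UMIs each, and shallower cells left out, so that depth did not decide detection. An Acta2 UMI was found in 73.3% and 65.6% of these cells in CKO libraries and in 50% and 34.1% in WT libraries, where epithelial-like cells gave 1.41% and 4.40% in CKO libraries and 2.38% and 2.36% in WT libraries. A Myh11 UMI was found in 10.6% and 7.79% of matrix fibroblast-like cells in CKO libraries and in 1.96% and 1.88% in WT libraries, where epithelial-like cells gave 0.234% and 0.375% in CKO libraries and 0.125% and 0.262% in WT libraries. Matrix fibroblast-like cells supplied 13.8% and 13.2% of all mesenchymal Myh11 UMIs in CKO libraries, and 3.62% and 3.86% in WT libraries.

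The share of cells with many contractile UMIs was counted over the whole mesenchyme in the same thinned cells. Cells with at least 5 UMIs of the 10 genes together made up 43.6% and 42.6% in CKO libraries and 38.1% and 31.3% in WT libraries. The means were 43.1% ± 0.705 in CKO libraries and 34.7% ± 4.84 in WT libraries (SD, n = 2 each), with a two-sided exact permutation p of 0.33, the smallest that 2 libraries against 2 can give. The order rested on Acta2: with it left out of the sum, a choice made after seeing the data, the shares were 15.6% and 19.9% in CKO libraries and 20.2% and 20.2% in WT libraries, so that the CKO libraries were the lower (exact permutation p = 0.33). With any other of the genes left out, the CKO libraries stayed the higher, by 8.38 to 12.1 percentage points. At 20 UMIs or more, the shares were 7.81% and 10.7% in CKO libraries and 8.36% and 4.70% in WT libraries, which overlapped (exact permutation p = 0.667). The kinds of cells behind the upper range differed: among cells with at least 20 UMIs, matrix fibroblast-like cells were 10.1% and 22.8% in CKO libraries and 4.59% and 0.885% in WT libraries, and vascular smooth muscle-like cells were 12.7% and 12.7% in CKO libraries and 21.1% and 29.2% in WT libraries. The Wif1-led cluster gave 24.9% and 24.0% of these cells in CKO libraries and 33.5% and 21.2% in WT libraries, and myofibroblast-like cells 20.6% and 11.2% in CKO libraries and 22.0% and 11.5% in WT libraries, so both overlapped. Without thinning, the difference in the share with at least 5 UMIs was 1.33 percentage points, against 8.45 with it.

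**Figure D4:**
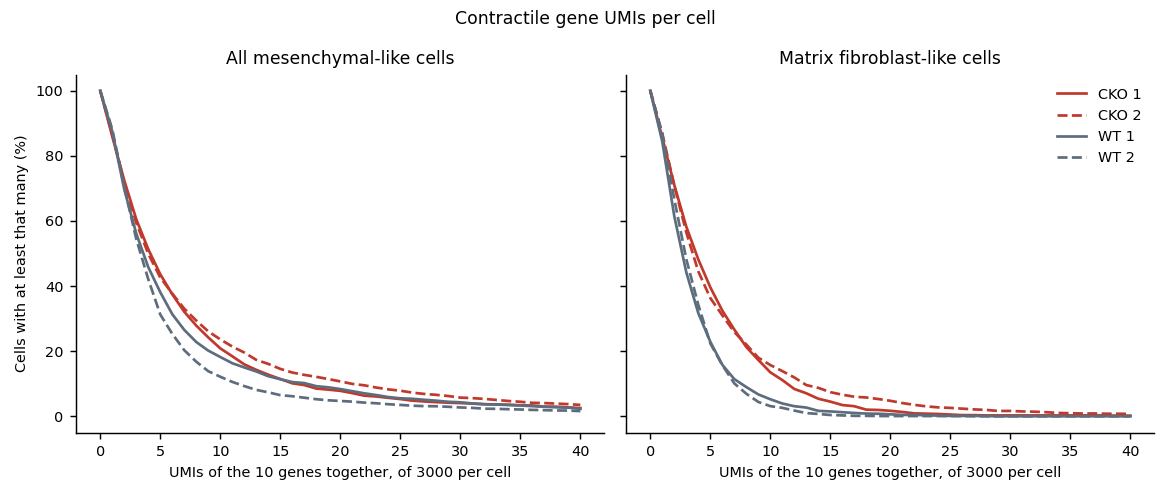
Percentage of cells holding at least a given number of UMIs of the 10 genes together, of 3000 UMIs per cell, for the libraries of CKO (red) and WT (grey). At 5 UMIs the CKO libraries reach 43.6% and 42.6% of all mesenchymal-like cells, against 38.1% and 31.3% in WT libraries.

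Each gene was also measured in cells chosen without it, those with at least 5 UMIs of the other 9 genes among 3000, which are of several kinds and not muscle cells alone. In these cells 1 of the 10 genes was called, Actc1, against 7.96% of all genes in its fit. The share called was thus near that of genes at large. Actc1 had 42.8 and 62.2 CPM in CKO libraries and 146 and 98.6 CPM in WT libraries, and fell by 1.18 on the log2 scale (SE 0.26, adjusted p = 0.0169). The CKO libraries stood below the WT libraries. Without CKO library 1 the value was -0.92 (adjusted p = 0.112) and without WT library 1 it was -0.83 (adjusted p = 0.0982), neither called. Asking for at least 10 UMIs of the others gave -1.49 (adjusted p = 0.00315, 4.55% of all genes called), and asking for at least 20 gave -1.49 (adjusted p = 0.00791, 1.29% called). At 10 Lmod1 was called lower beside it (-0.78, adjusted p = 0.0439, 4.46% of all genes called in its fit). Asking for at least 2 ended the Actc1 call (-0.97, adjusted p = 0.0607, 11.2% called), and the gene called there was Itga8, lower in CKO libraries (-1.04, adjusted p = 0.0340, 10% called). The make-up of such cells was not the same in every library: matrix fibroblast-like cells were 42.5% and 43.8% of those with at least 5 UMIs of the 10 genes in CKO libraries and 38.7% and 46.0% in WT libraries, and 30.3% and 34.3% of those with at least 10 in CKO libraries and 18.53% and 16.4% in WT libraries. The Actc1-led cluster gave 4.95% and 4.07% of those with at least 10 in CKO libraries and 3.58% and 11.0% in WT libraries, and the part of this make-up in the Actc1 value was not tested. Acta2 was 0.64 (SE 0.23, adjusted p = 0.194), Myh11 -0.14 (SE 0.19, adjusted p = 0.740) and Tagln -0.15 (SE 0.23, adjusted p = 0.788) in cells rich in the others.

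Most Actc1 transcripts came from the small Actc1-led cluster, which was picked out in part by that gene. It held 73.8% and 70.8% of mesenchymal Actc1 UMIs in CKO libraries and 69.6% and 86.2% in WT libraries. That cluster held 25 and 26 CKO cells and 18 and 36 WT cells, so 1 WT library lay under the minimum of 20 cells and the cluster was tested with a minimum of 15 chosen after seeing the data. Actc1 had 1261 and 1799 CPM there in CKO libraries and 4658 and 1903 CPM in WT libraries. The CKO libraries were below both WT libraries, and WT library 1 stood far above the other 3. The log2 fold change was -1.15 (SE 0.41, adjusted p = 0.494), and edgeR called none of the 10 genes in the cluster, against 0.309% of all genes, with 3 of the 10 at an unadjusted p under 0.05 and 0 called by DESeq2. Without WT library 2, Actc1 was called lower. The cycling markers summed to 973 CPM in the cluster of WT library 1, against 37.0 and 45.5 CPM in CKO libraries and 51.5 CPM in WT library 2, and their part was not tested. The cluster's 16 cardiac and skeletal muscle markers summed to 563 and 611 CPM in CKO libraries and 792 and 551 CPM in WT libraries. Actin genes have nearly the same coding sequence, and how reads shared between them were counted is not given in the sources used here.

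**Figure D5:**
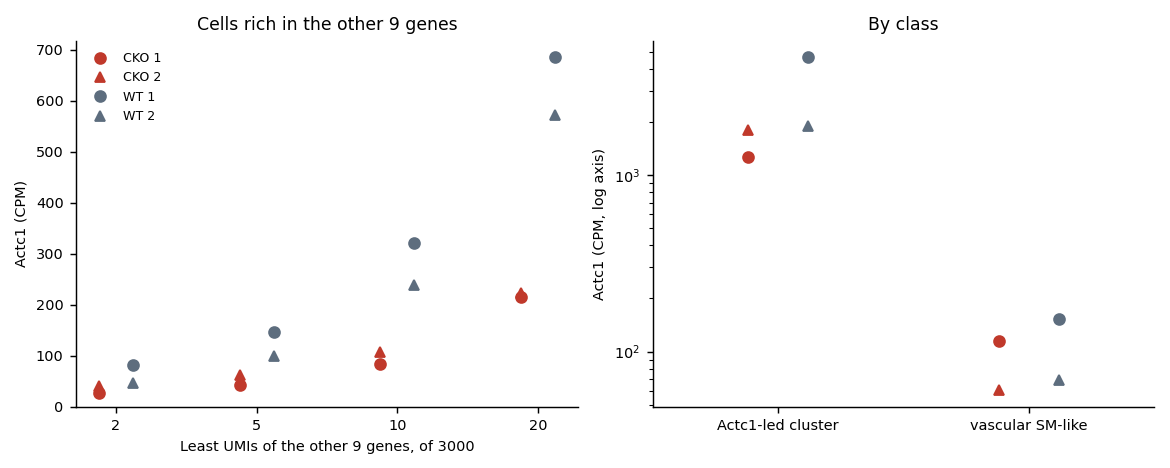
Actc1 level by library (CKO red on the left, WT grey on the right), at left in cells holding at least 2, 5, 10 or 20 UMIs of the other 9 genes and at right in the Actc1-led cluster and the vascular smooth muscle-like class (log axis). In cells with at least 5 such UMIs the CKO libraries stand at 42.8 and 62.2 CPM, against 146 and 98.6 CPM in WT libraries.

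In the other clusters calls were scattered. In adventitial fibroblast-like cells, where 2.32% of all genes were called, Cnn1 was called higher (log2 fold change 2.67, SE 0.55, adjusted p = 0.0166), with 15.9 and 15.7 CPM in CKO libraries and 0.928 and 3.35 CPM in WT libraries. These rest on 24 and 24 UMIs in CKO libraries and on 1 and 6 UMIs in WT libraries. The value ran between 2.21 and 3.96 with a library left out. Itga8 was called lower there, with 69.7 and 118 CPM in CKO libraries and 174 and 226 CPM in WT libraries (log2 fold change -1.10, SE 0.26, adjusted p = 0.0363). In the Lum-led cluster, where 4.52% of all genes were called, Itga8 was again lower, with 126 and 164 CPM in CKO libraries and 302 and 388 CPM in WT libraries (log2 fold change -1.24, SE 0.22, adjusted p = 0.00709). Tagln was higher in the Lum-led cluster, with 470 and 536 CPM in CKO libraries and 286 and 279 CPM in WT libraries (log2 fold change 0.86, SE 0.19, adjusted p = 0.0233). Without WT library 2 neither call held in the Lum-led cluster, and the Tagln call also ended without CKO library 2 or WT library 1. The Itga8 call in adventitial fibroblast-like cells ended without CKO library 1.

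Cycling cells ran the other way, with 5 of 9 tested genes called lower and none higher, against 0.896% and 1.67% of all genes (2.56% in either direction). Myh11 had 71.0 and 45.0 CPM in CKO libraries and 209 and 238 CPM in WT libraries (log2 fold change -1.90, SE 0.25, adjusted p = 0.00284). Lmod1 had 3.06 and 4.38 CPM in CKO libraries and 33.9 and 23.5 CPM in WT libraries (log2 fold change -2.98, SE 0.44, adjusted p = 0.00602). Synpo2, Cnn1 and Tagln were also called lower, at -2.88, -2.72 and -1.22. Cnn1 rested on WT library 1, with 16 and 12 UMIs in CKO libraries and 69 and 11 UMIs in WT libraries: its value was -1.19 (adjusted p = 0.396) without WT library 1, and -3.37 without WT library 2. In this class the 12 pericyte markers summed to 558 and 1256 CPM in CKO libraries and 1593 and 4215 CPM in WT libraries, with 8 of 12 lower in both CKO libraries, and the 11 myofibroblast markers to 703 and 617 CPM in CKO libraries and 1171 and 1033 CPM in WT libraries, with 9 of 11 lower; their part was not tested. With equal cells per library edgeR called none of the 6 genes then tested, with 3 at an unadjusted p under 0.05. Without WT library 1 it called none of 9 (4 at an unadjusted p under 0.05), without WT library 2 it called Cnn1, Actc1 and Actg2, and without CKO library 1 the Tagln call ended.

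CKO matrix fibroblast-like cells differ among themselves in germline transcripts, which are kept silent by DNA methylation in WT tissue, and the contractile genes were set beside them. In CKO library 2, thinned cells with a UMI of 10 germline genes had Acta2 at 1395 CPM, Myh11 at 44.5 CPM and Des at 125 CPM, and cells without one had 664, 21.1 and 37.8 CPM. In CKO library 1 the Acta2 values were 1124 CPM with a germline UMI and 1197 CPM without, so the order did not repeat, while Myh11 stood at 65.1 CPM with and 25.3 CPM without, and Des at 90.4 CPM with and 64.3 CPM without. WT cells without a germline UMI had Acta2 at 509 and 291 CPM and Myh11 at 7.95 and 6.92 CPM in libraries 1 and 2. These values are a description of cells within libraries and carry no test.

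Of the wider contractile machinery edgeR called no gene higher in the mesenchymal sums; values in brackets here are log2 fold changes. From companion lists, edgeR called 0 of 8 thin filament genes (Cnn2, the neutral calponin, had the smallest p, at -0.64 with adjusted p = 0.124, and 2 of the 8 had an unadjusted p under 0.05). Of 11 myosin genes 3 were called, all lower: Mylk, the kinase that starts contraction (-0.79, adjusted p = 0.0327), Rock2, a kinase that sustains it (-0.76, adjusted p = 0.0445), and Ppp1r14a, an inhibitor of myosin phosphatase (-0.78, adjusted p = 0.0466). Mylk stood at 530 and 560 CPM in CKO libraries and 866 and 1006 CPM in WT libraries, without overlap. Of 19 adhesion and cytoskeleton genes 2 were called lower, Synm, an intermediate filament partner of desmin (-1.75, adjusted p = 0.00485), and Itga1, a collagen-binding integrin subunit (-0.93, adjusted p = 0.0108). Of 9 tested calcium handling genes Jph2, a junctional membrane protein, was called lower (-1.01, adjusted p = 0.0352), and of 22 regulators Tgfbr2, a TGF-beta receptor, was called lower (-0.87, adjusted p = 0.0265). Over all genes tested, edgeR called 12.9% in either direction and 5.82% lower; the lists were not tested against that share. DESeq2, which called 20.4% of all genes in these sums, called 2 thin filament, 3 myosin, 9 adhesion and cytoskeleton, 2 calcium handling and 7 regulator genes, some of them higher. The list medians, in the order given, were -0.05, -0.15, -0.31, -0.23 and 0.06 beside 0.00 for all genes. Within matrix fibroblast-like cells edgeR called 3 of 18 adhesion and cytoskeleton genes higher and 1 lower. It called 3 of 21 regulators higher there and 1 lower. Of 11 myosin and 4 calcium handling genes 1 each was called lower, and of 7 thin filament genes 0. Over all genes of that class 6.76% were called higher and 5.08% lower.

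The pattern of other genes was set against the summed level of the 10 over the 36 sums of 9 classes in 4 libraries. Among 7191 genes outside the 10 and their companion lists, the 8 most alike were Ramp1, Rbm24, Dstn, Mustn1, Bex4, Speg, Abr and Tnnt3. Mustn1 is also a marker used to name the vascular smooth muscle-like class, so its likeness is in part built in. Pearson correlations of log2 CPM were between 0.875 for Tnnt3 and 0.921 for Ramp1, a receptor-activity-modifying protein. The sums share libraries, and the values are a description without a p-value.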

How the data were processed

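The deposited UMI counts per gene and barcode were made by the authors; the submitters' processing notes name Cell Ranger 3.1.0, bcl2fastq 2.20, Seurat and the build GRCm38.p6; per the labels' protocols, lungs were digested with collagenase, DNase and dispase and red cells lysed. The 10 genes, the companion and marker lists and the tests were chosen with earlier results of these data known.

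Barcodes with at least 500 genes and at most 20% mitochondrial UMIs were kept, and Scrublet calls (96 and 80 in CKO libraries, 224 and 190 in WT libraries) were left out. Cells were clustered in scanpy 1.11.5. Mesenchymal-like cells were integrated with Seurat 5.3.0 (CCA) and clustered at resolution 1.0 without the 10 genes and their companions. Names needed at least 3 detected markers; the score and margin asked of a name were chosen once the clusters had been seen, and names are rebuilt from markers, hence "-like". UMIs were summed per library and class (at least 20 cells in every library), low-count genes removed with filterByExpr, and genotypes compared with edgeR 4.0.16 (TMM, quasi-likelihood F-test, Benjamini-Hochberg over all genes). SE was taken from the log2 fold change and the F statistic (their ratio, with F under a square root). Differences between classes used a genotype-by-class term with library as a factor. The split into levels and sizes weights each class's difference in CPM by its mean share of UMIs, and its difference in share by its mean CPM. Named genes were all 10 members, called companions (up to 4 with the smallest adjusted p per list, otherwise the 1 with the smallest p), Dnmt1, and 8 genes with the most similar pattern. The fits were tested on simulated data. DESeq2 1.42.0, scipy 1.17.1 and matplotlib 3.10.9 were used for alternatives, exact tests and plots. The alternatives are listed with their effect in the closing section. UMI shares carry counting error, and library totals of 48213065 UMIs or more limit rare genes in small classes most.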

Additional observations from a re-analysis of the deposited data

Results flagged for a closer look

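The change in CKO relative to WT differed between mesenchymal classes for several of the genes, by a test of the difference itself (edgeR, genotype-by-class term with library as a factor, adjusted over all genes). Over 28 pairs of classes and 268 tests of the 10 genes, 69 differences were called, while the share of all genes called ran between 0.0678% and 7.6% in a pair. Those of matrix fibroblast-like cells are given here, each as the log2 change in matrix fibroblast-like cells minus that in the other class.

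Myh11 had a called difference against 6 of the 7 other classes, by 2.27 against vascular smooth muscle-like cells, 3.36 against pericyte-like cells, 2.34 against myofibroblast-like cells, 1.94 against the Wif1-led cluster, 2.65 against adventitial fibroblast-like cells and 4.32 against cycling cells. Acta2 differed by 0.98 against vascular smooth muscle-like cells, 1.40 against pericyte-like cells, 0.95 against myofibroblast-like cells, 0.79 against adventitial fibroblast-like cells, 0.99 against the Lum-led cluster and 1.77 against cycling cells. Des differed by 1.24 against vascular smooth muscle-like cells, 1.52 against pericyte-like cells, 0.76 against myofibroblast-like cells, 1.75 against the Wif1-led cluster and 1.74 against cycling cells.

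Itga8 differed by -1.47 against vascular smooth muscle-like cells, -4.12 against myofibroblast-like cells and -2.19 against the Wif1-led cluster. In each the change in matrix fibroblast-like cells was the lower. The value against myofibroblast-like cells rests on the few Itga8 UMIs of that class in WT libraries. Tagln differed by -0.85 against the Lum-led cluster and by 1.21 against cycling cells. Lmod1 differed by 3.15 against pericyte-like cells and 4.56 against cycling cells. Actg2 differed by 0.88 against the Wif1-led cluster and 2.39 against cycling cells, Cnn1 by 3.71 and Actc1 by 4.11 against cycling cells. The shares of all genes called in the same tests were 1.54% for vascular smooth muscle-like cells, 3.62% for pericyte-like cells, 7.6% for myofibroblast-like cells, 5.68% for the Wif1-led cluster, 2.68% for adventitial fibroblast-like cells, 1.84% for the Lum-led cluster and 5.29% for cycling cells.

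Of these 28 differences, 10 lost their call without at least 1 library, and DESeq2 lost 9. A fit without a library has 1 library left in a genotype. Such fits called more differences than the full fit, so a call kept in them does not show that a difference is firm. Myh11 ran between 1.93 and 2.66 against vascular smooth muscle-like cells with a library left out. Without CKO library 1 Des against myofibroblast-like cells was 0.16, Itga8 was -0.44 against vascular smooth muscle-like cells and -1.23 against the Wif1-led cluster, Lmod1 against pericyte-like cells was 2.95 and Tagln against the Lum-led cluster was -0.63. Without CKO library 2 Actg2 against the Wif1-led cluster was 0.48 and Acta2 against the Lum-led cluster 0.84. Without WT library 1 Actc1 and Cnn1 against cycling cells were 0.58 and 1.83, and Lmod1 against pericyte-like cells was 2.39. Without WT library 2 Des was 0.75 against vascular smooth muscle-like cells and 0.27 against myofibroblast-like cells, Actg2 was 0.63 and Itga8 -2.08 against the Wif1-led cluster. None of these values was called. Others moved by over 1.5 times. Des moved to 0.89 against the Wif1-led cluster without WT library 2. Against myofibroblast-like cells Des moved to 1.46 without CKO library 2 and 1.19 without WT library 1. Itga8 moved to -2.27 against vascular smooth muscle-like cells without CKO library 2.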

How the results depend on the processing

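With 4 libraries and classes of as few as 29 cells, a p that misses the threshold does not show equal levels. For the sex covariate, libraries were parted by Y-linked UMIs in mesenchymal-like cells, 4198 and 0 in CKO libraries and 0 and 5680 in WT libraries. Xist had 37967 and 60077 UMIs in CKO libraries and 26361 and 1 in WT libraries. CKO library 1 thus held both, and its place as male rests on the Y-linked UMIs alone. The count of calls moved with the processing. Over all mesenchymal-like cells 1 gene was called, against 3 without a low-count filter, 5 with DESeq2, 5 with a replicate block, 2 with sex as a covariate and 1 to 2 with a library left out. Over the 8 classes 14 of 66 tests were called, against 25 without the filter, 6 without integration, 7 with equal cells per library and 8 to 22 with a library left out; the replicate block gave 21. In cells rich in the other genes 1 was called, against 2 without the filter, 2 with DESeq2, 3 with the replicate block, 2 with at least 10 UMIs of the others and 0 to 1 with a library left out. In the epithelial-, endothelial-, immune- and mesothelial-like classes 0 was called, against 2 without the filter, 1 with the replicate block and 0 to 3 with a library left out. Differences between classes numbered 69, against 44 with DESeq2, 100 without the filter and 72 to 100 with a library left out. The difference in the share of cells with at least 5 UMIs was 8.45 percentage points, 5.02 to 11.9 with a library left out. Leaving Acta2 out of the genes summed, an alternative chosen after seeing the data, turned it to -2.49. Of the alternatives to called values of single genes, 376 kept the call, 71 lost it and 0 changed sign; of those to uncalled values 84 gained a call and 96 changed sign. Same-numbered libraries correlated at 0.134 in their deviations over 13758 genes, from 2 pairs only, so the numbers were not taken as pairing. Some clusters reached no name under another clustering and have no value there; the causes of the shifts were not tested.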
